A study of Mus musculus with 14 samples.

Results

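The 9 cell cycle cyclins Ccnd1, Ccnd2, Ccnd3, Ccne1, Ccne2, Ccna2, Ccnb1, Ccnb2 and Ccnf were taken by name from the 52459 genes in the count tables. Mouse embryonic stem cells (mESCs) of 2 lines were compared, WT E14Tg2a cells and a METTL14 R255K knock-in of them. In the knock-in, the arginine at the R255 site of METTL14, a subunit of the complex that writes N6-methyladenosine (m6A) on mRNA, was changed to lysine with CRISPR-Cas9. According to the study's methods knock-in lines were grown from single colonies, so a difference between the lines can also be one between clones. Both lines were grown on gelatin with serum and LIF. For RNA decay, each line was given 5 μg/ml actinomycin D, which blocks transcription, for 0, 4 or 8 h, and polyA RNA of 1 library per line and time was sequenced. For m6A, total RNA of untreated cells was immunoprecipitated with an m6A antibody (MeRIP-seq, 2 IP and 2 input libraries per line), and 1 peak list per line was deposited.

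Cyclins are the regulatory subunits of cyclin-dependent kinases (CDKs), and their levels time the steps of the cell cycle. D-type cyclins pair with CDK4 and CDK6 in G1, E-type cyclins pair with CDK2 at the entry to S phase, cyclin A2 acts in S phase and G2, and B-type cyclins pair with CDK1 in mitosis. Cyclin F has no CDK partner of its own and is the substrate-binding subunit of an SCF ubiquitin ligase. Mouse ES cells are known for a short G1 phase and for high cyclin E.

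The m6A peak lists held exonic peaks on 4 of the 9 cyclin mRNAs in WT cells and on 2 in R255K cells. The sequences nearest to each summit that matched GGAC, AGAC or AAAC on the strand of the mRNA are printed here, since the study names these 4-letter motifs. It reported GGAC as enriched in constitutive m6A regions, and AGAC and AAAC in the regions that decreased in R255K cells. Each run has 28 bases of the mm10 genome, written in DNA letters 5′ to 3′ along the minus strand, with the motif in capitals. The printed runs lie at chr7:144932601-144932628 (Ccnd1, WT peak), chr7:144939691-144939718 (Ccnd1, R255K peak), chr6:127129839-127129866 and chr6:127129886-127129913 (Ccnd2), chr7:38098229-38098256 (Ccne1) and chr17:24223762-24223789 (Ccnf).
Ccnd1, WT peak: cgtgcgagatgtGGACatctgagggcca
Ccnd1, R255K peak: acagccctccccAGACggccgcgccatg
Ccnd2, WT peak, nearest motif: aggaggaatcagAAACgagaagggacat
Ccnd2, WT peak, nearest GGAC: ccgtgggtgccaGGACcgcatgagtagt
Ccne1, WT peak: acttgacccactGGACtcttcacacaga
Ccnf, WT and R255K peaks: tgcaagctgtcaGGACactgagctcagt

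In Ccnd1 the GGAC of the WT peak lay 67 bp from the summit, in the last exon. The R255K peak of Ccnd1 had no GGAC within 100 bp of its summit and 6 AGAC, the nearest of them 20 bp away. Ccnd2 had AAAC 21 bp and GGAC 26 bp from its summit. In Ccne1 the GGAC was 28 bp from the summit, and in Ccnf the same GGAC was 26 bp from the WT summit and 11 bp from the R255K summit. All 4 WT peaks thus had GGAC within 100 bp. Of all 13413 exonic WT summits, 79.0% had GGAC in this window, 68.6% AGAC and 50.9% AAAC. For the 8424 exonic R255K summits these shares were 82.3%, 65.9% and 45.2%.

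The strongest WT peak by fold enrichment of IP over the local background was that of Ccnd2 (chr6:127129655-127130098), with a fold enrichment of 7.53 (−log10 q 44.5). Its summit lay in the 3′ UTR, 462 bases after the stop codon. The WT peak of Ccnf (chr17:24223407-24224017) had a fold enrichment of 4.13 and the highest −log10 q, 70.9, with its summit 97 bases after the stop codon. Ccne1 had a weaker 3′ UTR peak (chr7:38098089-38098306, fold enrichment 2.07, −log10 q 10.4), 301 bases after the stop codon. The WT peak of Ccnd1 was the weakest (chr7:144932568-144932813, fold enrichment 1.66, −log10 q 2.69). Its summit lay in the coding sequence, 74 bases before the stop codon, and only 0.440% of all exonic WT peaks had a lower fold enrichment.

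Of these 4 WT peaks, 3 had no overlapping R255K peak, those of Ccnd1, Ccnd2 and Ccne1. Over all 13870 exonic WT peaks this share was 47.9%. The 3′ UTR peak of Ccnf was in both lists, but the R255K peak was narrower, 202 bp against 611 bp, with a fold enrichment of 2.40 (chr17:24223693-24223894, −log10 q 12.6). The other R255K peak was on Ccnd1 at a different place (chr7:144939568-144939848, fold enrichment 2.59, −log10 q 24.8), in exon 1 at the start of the coding sequence, and no WT peak overlapped it. Of all 8818 exonic R255K peaks, 13.1% had no overlapping WT peak. A peak absent from a list was under the caller's threshold, and the depth behind the lists is unknown.

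The other 5 cyclins, Ccnd3, Ccne2, Ccna2, Ccnb1 and Ccnb2, had no peak in either list. Of the 11869 genes tested for expression, 57.4% had an exonic WT peak and 43.6% an exonic R255K peak. Among genes with at least 10 FPKM in both lines these shares were 55.4% and 48.8%.

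**Figure D1:**
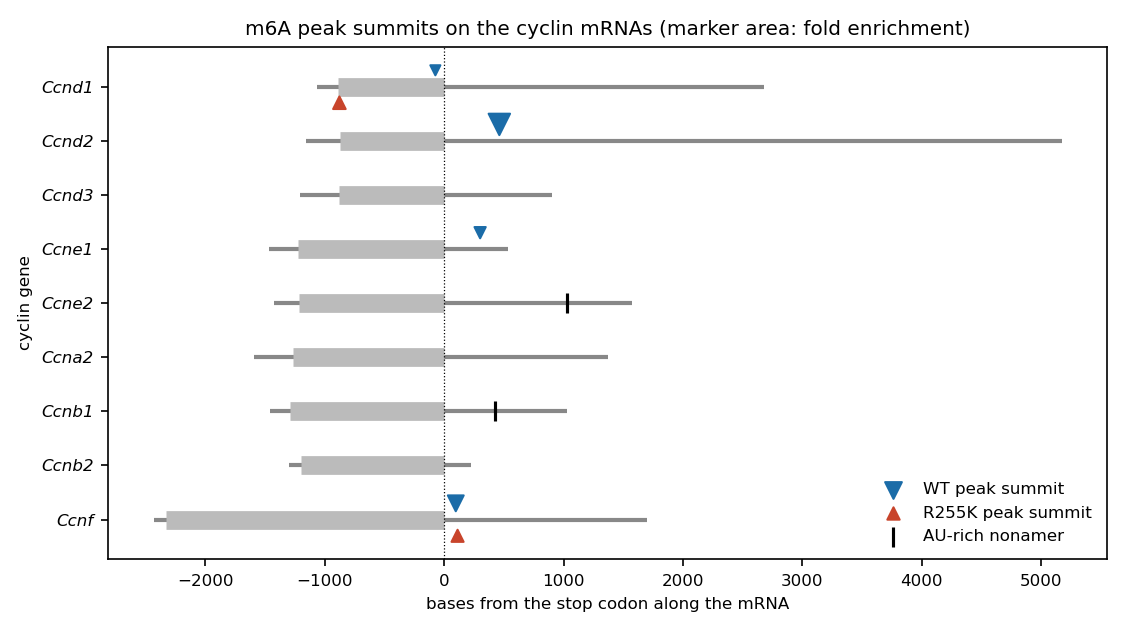
The mRNA of each cyclin drawn to scale in bases from the stop codon (wide bar, coding sequence; thin line, UTRs), with WT summits above and R255K summits below each mRNA and marker area in proportion to fold enrichment. The summits of Ccnd2, Ccne1 and Ccnf sit after the stop codon, while Ccnd1 has its WT summit before the stop codon and its R255K summit at the start of the coding sequence.

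For expression, the deposited counts summed to between 13812160 and 18813640 per library, and the 9 cyclins took 0.162% to 0.227% of them. With 1 library per line and time there is no replicate, and no p-value is given. Every 95% interval below covers counting error only. The 7 ES cell markers were all expressed, with a summed level of 2591 FPKM (counts per kilobase of exon, scaled to the summed counts of the library) in WT and 1917 in R255K at 0 h. Mettl14 had 681 counts in WT against 299 in R255K at 0 h, and counts cannot show the edited codon. As a check of the transcription block, the short-lived Sox2 mRNA went from 230 to 10.3 FPKM in WT and from 182 to 7.39 in R255K over 8 h. The level of a gene is relative to the rest of its library, and in bulk RNA fewer cells in a phase and less RNA per cell cannot be told apart.

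In WT cells at 0 h, Ccne1, Ccnf, Ccnb1 and Ccnb2 stood highest, at 123, 118, 116 and 112 FPKM. Neighbours among these 4 had overlapping intervals. Ccna2 followed at 75.9 FPKM, Ccnd1 at 46.9 and Ccnd3 at 41.1, each apart from its neighbours. Ccne2 at 3.94 FPKM and Ccnd2 at 1.15 were far below. R255K cells had Ccne1 on top at 183 FPKM, then Ccnf at 105. Ccnb1, Ccnb2 and Ccnd1 followed at 93.1, 91.7 and 87.4 FPKM, with overlapping intervals between neighbours. On this scale Ccnd1 had thus moved up to the level of the B-type cyclins, and Ccnd2 had passed Ccne2 (7.90 against 2.71 FPKM). The order between genes depends on the exonic length by which counts are divided, which the intervals do not cover. Ccnd3, with 6280 WT counts at 0 h against 5718 for Ccne1, was divided by 8775 bp, while its longest coding transcript has 2113 bases. For Ccnb1 these lengths were 4217 and 2489, and for Ccnf 3099 and 4133.

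**Figure D2:**
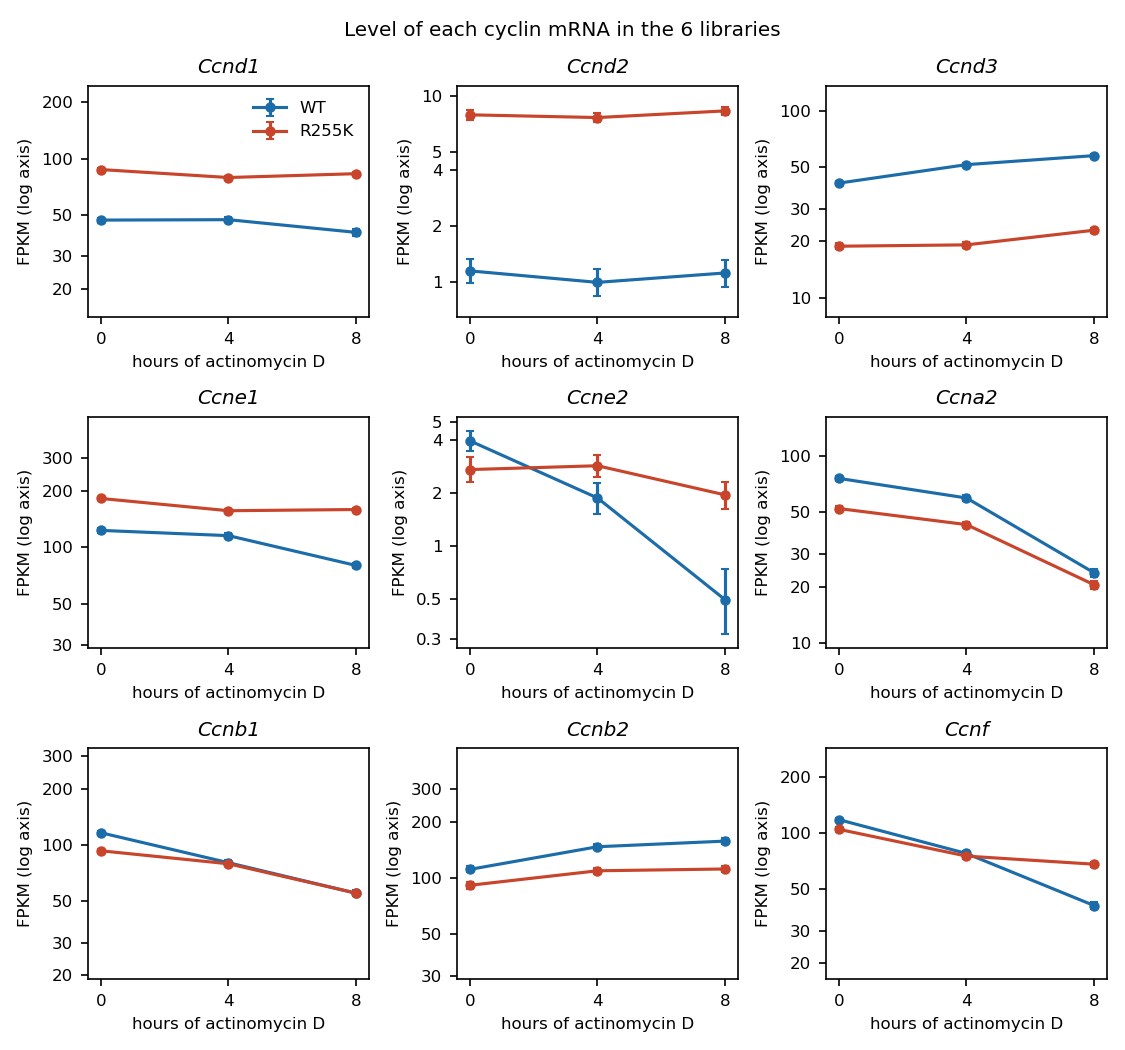
FPKM of each cyclin (log axis) against hours of actinomycin D in WT and R255K, 1 library per point, with 95% counting intervals. The lines of Ccnd1, Ccnd2 and Ccnd3 stay apart at all 3 times, while those of Ccnb1 meet at 4 and 8 h and those of Ccne2 and Ccnf cross.

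The 3 D-type cyclins, which carry growth signals to the RB pathway, kept the 2 lines apart at all 3 times. Ccnd2 had 189, 141 and 146 counts in WT at 0, 4 and 8 h and 1162, 1336 and 1467 in R255K. All 3 R255K libraries were above all 3 WT libraries. The ratio of FPKM, R255K over WT, was 6.85 at 0 h (95% interval 5.87 to 8.03), 7.63 at 4 h and 7.38 at 8 h. Only 0.590% of the tested genes had a higher log2 ratio at 0 h. Ccnd2 was nonetheless a low mRNA in WT, near 1 FPKM.

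Ccnd1 had 3847, 3324 and 2620 counts in the WT libraries against 6439, 6939 and 7360 in R255K. Again no R255K library reached down to the WT range. Its ratio was 1.86 at 0 h (1.79 to 1.94), 1.68 at 4 h and 2.06 at 8 h. The neighbourhood of Ccnd1 on chromosome 7 moved the same way. Of the 73 tested genes within 5 Mb of it, 41 (56.2%) were at least 1.5-fold higher in R255K at 0 h. Their median log2 ratio was 0.62. For the other 8 cyclins the median of the neighbours lay between −0.32 and 0.18. The part of this neighbourhood in the level of Ccnd1 was not tested.

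Ccnd3 went the other way. It had 6280, 6781 and 6987 counts in the WT libraries against 2589, 3130 and 3794 in R255K, so every WT library was above every R255K library. The ratio was 0.459 at 0 h (0.439 to 0.481), 0.372 at 4 h and 0.399 at 8 h. At 0 h 4.85% of the tested genes had a lower log2 ratio, and at 4 h 0.809%. Ccnd3 shares 361 bp of exon with Bysl on the opposite strand, and the library kit does not mark strand. Bysl had 2419 counts in WT against 4151 in R255K at 0 h, the opposite direction.

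Markers of other cell types were also detected. Fibroblast markers summed to 2.11 FPKM in WT and 6.96 in R255K at 0 h, with 1 of 5 at 1 FPKM or more in both lines, and Col3a1 was at 0 in WT. Mesoderm markers summed to 0.749 and 2.36 FPKM, with 0 of 3 at that level in both. Endoderm markers summed to 5.37 and 5.16 FPKM (2 of 4), and neural markers to 108 and 145 (3 of 3), nearly all of it Tubb3. Their part in the levels of Ccnd1 and Ccnd2 was not tested.

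Of the E-type cyclins, Ccne1 had 5718, 4607 and 2939 counts in the WT libraries against 7609, 7776 and 7984 in R255K. The R255K libraries were above the WT libraries at each time, with a ratio of 1.48 at 0 h (1.43 to 1.53), 1.36 at 4 h and 1.99 at 8 h. Ccne2 changed side. It had 240, 98 and 24 counts in the WT libraries against 148, 185 and 128 in R255K. The ratio was 0.687 at 0 h (0.556 to 0.847), 1.52 at 4 h (1.18 to 1.96) and 3.92 at 8 h (2.52 to 6.33). Ccne2 shares 609 bp of exon with Ints8 on the opposite strand, which had 1507, 1343 and 953 counts in WT against 572, 1396 and 1226 in R255K. Reads of the 2 genes in the shared stretch cannot be told apart.

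Ccna2, which drives DNA replication and the passage through G2, was lower in R255K at all 3 times, with 5403, 3646 and 1335 counts in WT against 3342, 3260 and 1569 in R255K. Its ratio of FPKM was 0.689 at 0 h (0.660 to 0.720), 0.720 at 4 h and 0.863 at 8 h. It shares 510 bp of exon with Exosc9 on the opposite strand, which had 735 and 421 counts in the 2 lines at 0 h.

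Of the mitotic cyclins, Ccnb1 had 8550, 5077 and 3211 counts in the WT libraries against 6141, 6219 and 4379 in R255K, ratios of 0.80 at 0 h (0.774 to 0.827), 0.987 at 4 h and 1.00 at 8 h. The counting intervals held 1 at 4 and 8 h but not at 0 h. Ccnb2 had 2977, 3384 and 3344 counts in the WT libraries against 2196, 3123 and 3230 in R255K. Its ratio was 0.822 at 0 h (0.777 to 0.869), 0.743 at 4 h and 0.709 at 8 h, below 1 with its interval each time. Ccnf had 6360, 3601 and 1746 counts in the WT libraries against 5066, 4328 and 3962 in R255K, ratios of 0.888 (0.855 to 0.921), 0.968 (0.926 to 1.01) and 1.67 (1.57 to 1.76). The count tables also list processed pseudogenes of 3 cyclins, with 44 to 85 counts for Ccnb1-ps, 2 to 95 for Ccnb2-ps and 0 to 2 for Ccnd3-ps. Reads that a cyclin shares with such a copy are uncertain.

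Counted by a log2 ratio of FPKM + 1 past 1.5-fold, 2 of the 9 cyclins were higher in R255K at 0 h, Ccnd1 (log2 0.89) and Ccnd2 (2.05), and 1 was lower, Ccnd3 (−1.08). Ccne1 (0.56) lay just under that limit. Of all 11869 tested genes, 17.0% were this much higher and 15.7% this much lower, with a median log2 ratio of 0.05. The share of cyclins past the limit was therefore near that of other genes. At 4 h the same 3 genes were past it, beside 25.6% of all genes higher and 7.29% lower. At 8 h 5 were higher, Ccnd1, Ccnd2, Ccne1, Ccne2 and Ccnf, and Ccnd3 was lower, beside 36.6% and 8.20% of all genes. The direction of the 3 D-type cyclins at 0 h was the same with TMM factors, DESeq2 size factors and ribosomal protein genes as the scale. Among the scales it turned for Ccnd3 only with Gapdh as the scale (log2 0.30), and Gapdh itself had 995, 242 and 2357 counts in WT against 331, 787 and 1875 in R255K.

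**Figure D3:**
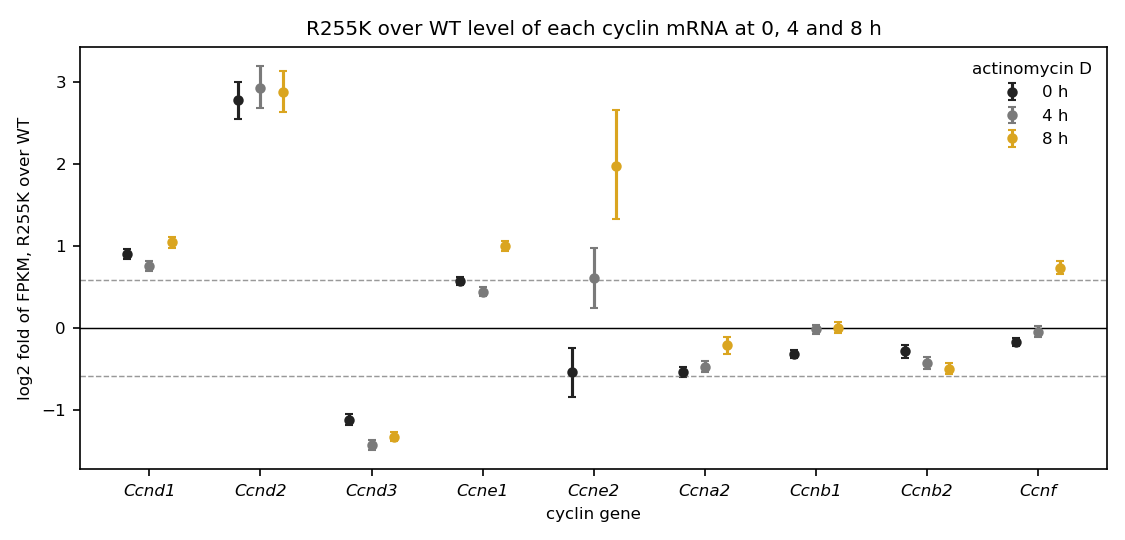
Log2 of the ratio of FPKM (no pseudocount), R255K over WT, of each cyclin at 0, 4 and 8 h, with 95% counting intervals and dashed lines at 1.5-fold. Ccnd1 and Ccnd2 lie above the upper line and Ccnd3 below the lower line at all 3 times, while Ccne2 and Ccnf pass from below 0 to above it.

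The libraries differed by base composition. Relative to WT at 0 h, genes with an exonic GC content of 40% had a trend of −0.69 on the log2 scale in R255K at 0 h, and genes with 55% had 0.27. For WT these 2 values were −0.63 and −0.14 at 4 h and −1.504 and −0.63 at 8 h, and for R255K −0.27 and 0.03 at 4 h and −0.70 and −0.0027 at 8 h. The cyclins range over this scale, from Ccne2 at 37.6% GC and Ccnb1 at 42.9% through Ccna2 at 46.2%, Ccnd2 at 48.7%, Ccnb2 at 49.3%, Ccne1 at 50.6% and Ccnd1 at 51.7% to Ccnd3 at 54.0% and Ccnf at 54.7%. With the trend removed, Ccnd1, Ccnd2 and Ccnd3 kept their side of 1.5-fold (Ccnd1 log2 0.82, Ccnd3 −1.19). Ccne2 went from −0.41 to 0.44 and Ccnb1 from −0.32 to 0.19, so the direction of these 2 genes at 0 h depends on whether the trend is removed.

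By the share left at 8 h of actinomycin D, the same 4 cyclin mRNAs kept the least in both lines, Ccne2, Ccna2, Ccnb1 and Ccnf. At 4 h this did not hold in R255K, where Ccne2 stood at 105% (84.2% to 131%). Ccne1, at 85.9%, was there near Ccnb1 at 85.2%. In WT at 8 h, 12.6% of the 0 h level of Ccne2 was left (7.93% to 19.2%), 31.2% of Ccna2, 34.6% of Ccnf and 47.4% of Ccnb1. Ccne1 kept 64.9%, Ccnd1 85.9% and Ccnd2 97.5%. Ccnd3 stood at 140% and Ccnb2 at 142% of the 0 h level. Such values are possible because each library is scaled to its own total. In R255K, Ccna2 kept the least, 39.0%, followed by Ccnb1 at 59.3%, Ccnf at 65.0% and Ccne2 at 71.9% (56.3% to 91.7%). Ccne1 kept 87.2%, a value inside the interval of Ccne2. Ccnd1 kept 95.0% and Ccnd2 105%, and both Ccnd3 and Ccnb2 stood at 122%.

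Less than 50% was left at 8 h for 4 of the 9 cyclins in WT, beside 43.4% of all tested genes, and for 1 in R255K, beside 22.6%. With DESeq2 size factors it was 1 in each line, and with Gapdh all 9 in each. The share of all genes was not counted on these scales, so these counts cannot be set beside other genes. With the total count as the scale, the medians over all genes were 64.1% in WT and 92.0% in R255K. A cyclin could therefore keep more in R255K and still stand lower among the genes of its own library, a rank that no scale factor changes. For Ccna2, 33.3% of genes in WT and 16.3% in R255K kept less. For Ccnb1 these shares were 42.3% and 28.0%, for Ccnf 35.4% and 31.3%, and for Ccne2 17.8% and 35.5%. Ccne2 was thus the one of these 4 whose rank was higher in R255K.

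**Figure D4:**
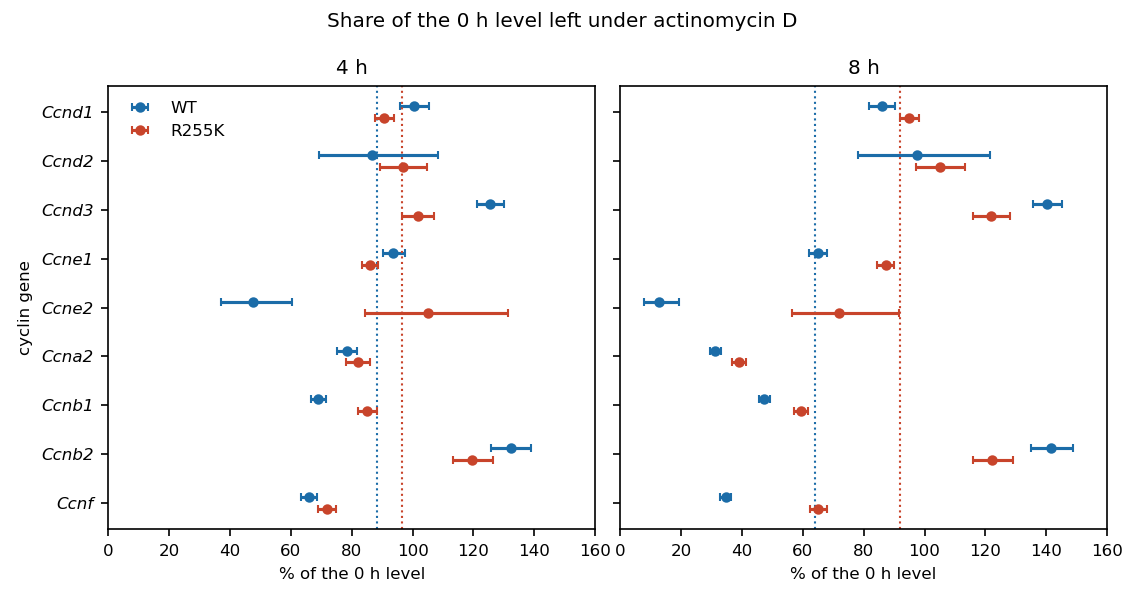
Share of the 0 h FPKM of each cyclin left after 4 h and 8 h of actinomycin D in WT and R255K, with 95% counting intervals; dotted lines mark the median of all tested genes in each line. At 8 h Ccne2, Ccna2, Ccnb1 and Ccnf lie left of the median line of their own genotype in both lines, and Ccnd3 and Ccnb2 right of 100%.

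The share left at 8 h in R255K over that in WT was 5.70 for Ccne2 (3.52 to 9.23) and 1.88 for Ccnf (1.75 to 2.01), the 2 cyclins at 1.5 or more, beside 44.2% of 11424 genes and a median of 1.33. At 4 h only Ccne2 was at this ratio (2.21), beside 31.8% of genes. None of the 9 was at 1/1.5 or less at either time, beside 6.15% of genes at 4 h and 8.83% at 8 h. At 8 h Ccnd3 and Ccnb2 passed that limit with TMM factors (0.663 and 0.659), DESeq2 size factors (0.617 and 0.614) and Gapdh (0.551 and 0.548). The median of all genes also fell on these scales, to 1.03, 0.958 and 0.855. On each of them Ccnd3 was at 0.644 and Ccnb2 at 0.641 times the median, so passing the limit there went with a shift of all genes. Neither passed it with ribosomal protein genes (1.24 and 1.23, median 1.92) or with the GC trend removed (1.01 and 0.882, median 1.29). When scaled to the total count, Ccne1 (1.35), Ccna2 (1.25) and Ccnb1 (1.25) lay near the median of 1.33. Ccnd1 had 1.11 and Ccnd2 1.08, and Ccnd3 (0.868) and Ccnb2 (0.863) were lower, with 25% and 24.7% of genes below them. With DESeq2 size factors the ratios of Ccne2 and Ccnf were 4.05 and 1.33, and with the GC trend removed 2.41 and 2.2.

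Leaving the 0 h libraries aside, the step from 4 to 8 h gave a different picture for Ccnb1 and Ccnf. Ccnb1 kept 68.6% of its 4 h level in WT (65.6% to 71.7%) and 69.6% in R255K (67.0% to 72.4%). Ccnf kept 52.6% (49.6% to 55.7%) and 90.5% (86.7% to 94.5%). The median of all genes over this step was 76.6% in WT and 92.6% in R255K. Ccnf was thus below the median in WT and near it in R255K. Ccna2 kept 39.7% and 47.6%, and in R255K only 3.31% of the tested genes kept less.

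Half-lives were taken from the mean of the decay rates to 4 h and to 8 h. The half-life of Ccnf was 5.85 h in WT (5.53 to 6.21) against 10.2 h in R255K (9.26 to 11.3), a ratio of 1.74 (1.55 to 1.94). For Ccnb1 the half-lives were 7.46 h and 13.1 h, a ratio of 1.76 (1.55 to 2.00). These are the 2 cyclins whose interval lay above 1.5. Ccna2 had 6.72 h and 8.30 h (ratio 1.23, 1.09 to 1.39) and Ccne1 19.7 h and 25.2 h (ratio 1.28, 0.983 to 1.67).

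For Ccne2 it was 3.12 h in WT against 48.3 h in R255K, where the interval starts at 13.5 h and has no upper end, and its ratio of 15.5 (1.19 to 202) is poorly fixed. Ccnd1 decayed so slowly that its half-lives, 78.4 h and 44.8 h, run far past the 8 h observed, and its ratio of 0.571 (0.223 to 1.46) held 1. For Ccnd2 the half-lives had no upper end in either line, so its ratio of 16.5 carries no information. Ccnd3 and Ccnb2 showed no decay in either line and have no half-life.

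Of the 7 cyclins with a ratio, 4 were above 1.5 and 1 was under 1/1.5, with a median of 1.74. Of these 4 only Ccnb1 and Ccnf had an interval above 1.5, Ccnd2 and Ccne2 being poorly fixed, and the interval of the 1 under, Ccnd1, held 1. Among the 5504 genes with a half-life in both lines, 68.8% were above 1.5 and 5.78% under 1/1.5, with a median of 1.98. These counts leave out genes without decay in a line. With such genes kept at an infinite half-life, 4 of 9 cyclins were above 1.5. Over 11847 genes that share was then 45.8%, with a median ratio of 1.29. The ratios also moved with the scale. With TMM factors Ccnb1 had 1.17 and Ccnf 1.29, and with DESeq2 size factors 1.14 and 1.29, beside medians of 1.76 and 1.80 over all genes. When scaled to ribosomal protein genes, all 8 cyclins with a ratio were above 1.5, beside 81.4% of 7430 genes. With Gapdh as the scale Ccnf had 0.115 and Ccnb1 0.015, beside a median of 0.549. Removing the GC trend left Ccnf at 2.23 and took Ccne2 from 15.5 to 1.43. It turned Ccnb1 to 0.709, so the direction for Ccnb1 depends on whether the trend is removed.

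**Figure D5:**
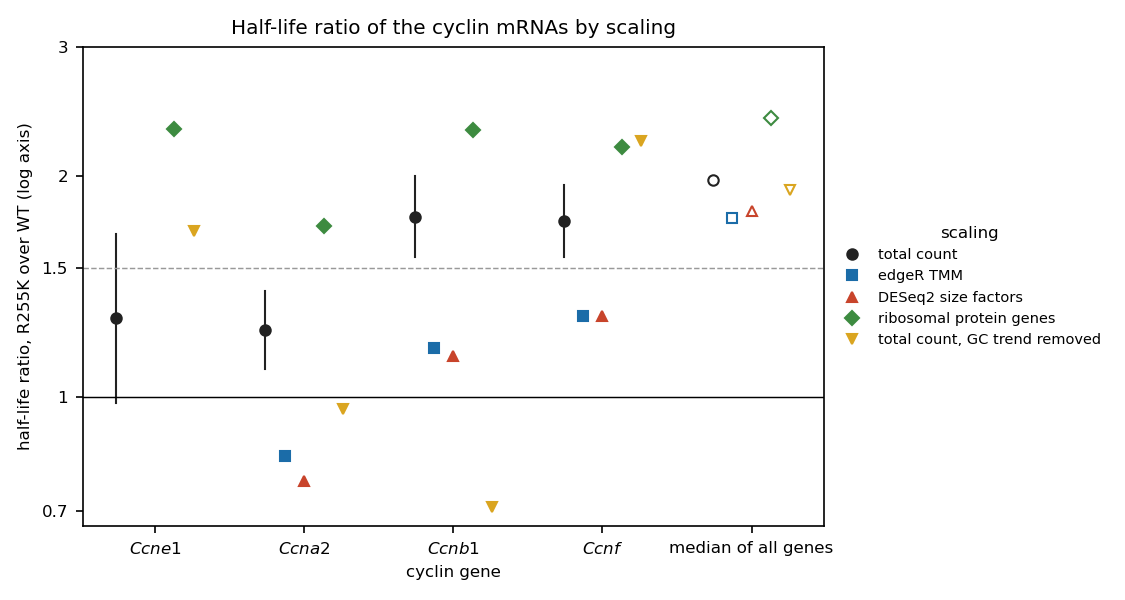
Half-life ratio, R255K over WT (log axis), of Ccne1, Ccna2, Ccnb1 and Ccnf under 5 scalings. Bars are the 95% counting interval for the total count, and open symbols are the median of all genes. Gapdh, where Ccnf has 0.115 and Ccnb1 0.015, is not drawn. Ccne1 has no ratio with TMM or DESeq2 factors. Ccnd1 is not drawn, though its half-lives are bounded in both lines. Its ratio is 0.571 with the total count, 2.37 with ribosomal protein genes and 1.73 with the GC trend removed. The ratio of Ccnf is above 1 under the 5 drawn, and that of Ccnb1 falls on both sides of 1.

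Set beside the peak lists, Ccnd1, Ccnd2 and Ccne1, whose WT peaks had no R255K counterpart, were at 1.86, 6.85 and 1.48 times the WT level at 0 h. Their shares left at 8 h, R255K over WT, were 1.11, 1.08 and 1.35, beside a median of 1.33 over all genes. The WT peak of Ccnd1 was the weakest, and Ccnd1 had another peak in R255K. Ccnf, with a weaker peak in R255K, was at 0.888 times the WT level and kept more of its mRNA at 8 h (ratio of shares 1.88). Among the 5 without any peak, Ccne2 had the highest ratio of shares left and Ccnb2 the lowest of the 9. A link between peaks and levels or decay was not tested.

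The sequences of the cyclin mRNAs differed in the motifs they hold. Ccne2 and Ccnb1 had the fewest GGAC, 0.665 and 0.804 per kb of mRNA, and 0.826% and 1.02% of the tested genes with a coding transcript had fewer. The other 7 cyclins had 3.48 to 5.88 per kb, around the median of 4.25. Ccne2 and Ccnb1 were also the only 2 of the 9 with the nonamer TTATTTATT in the 3′ UTR, the core of AU-rich elements that are known to destabilise mRNAs. It was found in 6.77% of the 10407 genes with a coding transcript, searched on the mRNA strand. The runs of 27 bases around it are printed with the nonamer in capitals, from chr4:11204117-11204143 on the plus strand and chr13:100779237-100779263 on the minus strand of mm10.
Ccne2, 1028 bases after the stop codon: cctagaaatTTATTTATTtaaacttgc
Ccnb1, 424 bases after the stop codon: tttatgtaaTTATTTATTtgttcttaa

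Ccne2 had 6 copies and Ccnb1 4 copies of the shorter ATTTA in the 3′ UTR, 3.80 and 3.89 per kb, more than 87.6% and 88.3% of genes. Ccnd1 had 5 copies in a longer 3′ UTR, and Ccne1 and Ccnb2 had 0. The 3′ UTR was longest in Ccnd2 at 5173 bases, more than in 97.4% of genes, and shortest in Ccnb2 at 227 bases. Ccne2, Ccnb1, Ccna2 and Ccnf, the 4 with less than 50% left in WT, had 3′ UTRs of 1028 to 1700 bases. Those with the most left in WT ranged more widely, from 227 bases in Ccnb2 and 907 in Ccnd3 to 2676 in Ccnd1 and 5173 in Ccnd2. A match of these letters is a description of the window and not evidence of binding.

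The gene whose 6 values most resembled those of each cyclin was found by the distance between centred log2(FPKM + 1) values among 4618 varying genes. For the D-type cyclins these were Lima1 for Ccnd1 (distance 0.09), Atp10a for Ccnd2 (0.25) and Cavin1 for Ccnd3 (0.15). For the E-type cyclins they were Ormdl3 (0.08) and Nupl1 (0.14). Topbp1 was nearest to Ccna2 (0.27), Noc3l to Ccnb1 (0.17), Hnrnph3 to Ccnb2 (0.08) and Cenpb to Ccnf (0.13). Within the family Ccnd1 and Ccne1 were nearest to each other (0.41), as were Ccne2 and Ccnf (0.45). Ccnd3 and Ccnb2 were nearest to each other at 1.06, and Ccnd2 was farthest from any other cyclin, at 1.504 from Ccnd1.

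Among 51 tested partners and regulators of the cyclins, 1 was at least 1.5-fold higher in R255K at 0 h and 11 were lower. Their median log2 ratio was −0.16. Over all tested genes 17.0% were higher and 15.7% lower, with a median of 0.05. The higher one was Cdkn1a, which encodes the CDK inhibitor p21, with 270 counts in WT against 527 in R255K (log2 1.02). The lowest was Cdkn1b, which encodes p27, with 1030 and 264 counts (−1.57). Cdkn1c, which encodes p57, followed with 1855 and 804 counts (−1.02), and E2f2, an activator of S phase genes, with 991 and 421 (−0.96). This order depends on the processing. Without a pseudocount Rb1 (−1.87) was below Cdkn1b (−1.81), and with the GC trend removed Cdkn1c (−1.25) was below Cdkn1b (−1.17). The CDK inhibitors thus lay on both sides. The count of 11 depends in part on the GC trend. Cul3, Rbl1 and Lin54, which are among the 11, had log2 ratios of −0.94, −0.65 and −0.72. With the trend removed these were −0.017, −0.195 and −0.23, none of them past 1.5-fold. Over all tested genes 2275 were then higher and 1172 lower, against 2021 and 1867 before.

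None of the 5 tested catalytic subunits, the partners that the cyclins switch on, was past 1.5-fold at 0 h. Cdk4 and Cdk6, the partners of D-type cyclins, had log2 ratios of −0.27 and 0.26. Cdk2 had −0.32 and Cdk1 −0.08. The retinoblastoma gene Rb1, a substrate of these kinases, had 203 counts in WT against 50 in R255K (−0.94), and E2f1, which RB restrains, had 1072 and 1147 (0.24). At 1.94 FPKM in WT and 0.531 in R255K, Rb1 lay near the pseudocount of 1, and without it the log2 ratio was −1.87. Cdc20 and Fzr1, which direct the mitotic cyclins to the proteasome, had −0.28 and −0.15. Cks1b had 0.55 and Nfyc, a subunit of the NF-Y factor, 0.37.

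A half-life in both lines was found for 33 of the partners. The ratio was above 1.5 for 15 and under 1/1.5 for 1, with a median of 1.48. Among all genes with a half-life in both lines, 68.8% were above 1.5 and 5.78% under 1/1.5, with a median of 1.98. Among the partners the ratio was highest for Cul3 (5.07, 3.57 to 7.20), the scaffold of a ubiquitin ligase, Rbl1 (4.72) and Lin54 (3.0), a subunit of the MuvB complex. It was lowest for Nfyc (0.436), Mybl2 (0.670) and Cdk1 (0.734, 0.538 to 1.00). Both Cul3 and Lin54 were lower in R255K at 0 h, with log2 ratios of −0.94 and −0.72. With the GC trend removed these were −0.017 and −0.23, and the half-life ratios of Cul3, Rbl1 and Lin54 were 1.08, 1.13 and 2.14, so the highest values among the partners depend on whether that trend is removed. The ratio of Mybl2 became 1.35.

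Of 17 other cyclins, with roles in transcription and elsewhere, 14 were tested. At 0 h 1 was at least 1.5-fold higher, Ccno, with 25 counts in WT against 337 in R255K (log2 2.59), and 2 were lower. Of all tested genes 17.0% were higher and 15.7% lower. Ccno, at 0.561 FPKM in WT and 8.43 in R255K, was tested only because of its level in R255K. Its place among the higher genes is thus not independent of the filter. Of 9 with a half-life in both lines, 7 had a ratio above 1.5 and 1, Ccnk, was under 1/1.5 (0.365). Among all genes with a half-life in both lines, 68.8% were above 1.5 and 5.78% under 1/1.5. The median ratio of these 9 cyclins, 1.78, was close to that of the cell cycle cyclins and under the median of 1.98 over all such genes.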

How the data were processed

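The 9 cyclins, the gene lists and the thresholds were chosen with earlier results of these data known. According to the study's methods and the submitters' processing notes, the authors removed rRNA reads with Bowtie2 2.2.6, aligned to mm10 with HISAT2 and filtered reads (Picard 2.16.0, SAMtools 0.1.09). The deposited counts are raw counts per gene. The counting tool, its annotation and any use of strand are not given in the sources used here. For the peaks the authors ran MACS2 of IP over input, and the deposited fold enrichment (a ratio) and −log10 q are those of the caller. How the libraries of a line were combined is not given, and no values per library are used here.

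FPKM was computed from the counts, the lengths in the count tables and the summed counts. Genes whose FPKM at 0 h averaged 1 or more were tested (11869, all 9 cyclins among them), and log2 ratios used a pseudocount of 1. Intervals are exact Poisson intervals for levels, conditional binomial (Clopper-Pearson) intervals for a ratio of 2 counts, and delta-method intervals for half-lives. A ratio of shares left needed at least 3 counts in each library. Peaks overlap by at least 1 bp. Exons came from the count tables, and UTRs, coding sequence and motifs from the longest coding transcript of GENCODE vM21. For Ccnf the count table's 3′ end is shorter than that transcript. The 3 four-letter motifs are those the study names, and the AU-rich nonamer and the neighbourhood within 5 Mb were added after values were seen. Named genes were the cyclins, Mettl14, Gapdh, the nearest pattern to each cyclin, the 3 highest and 3 lowest partners by log2 and half-life ratio, and fixed partners. Ccno, Ccnk, Bysl, Ints8 and Exosc9 were named for a count or an overlap after their values were seen. The scaling alternatives used TMM factors (edgeR 4.0.16) and size factors (DESeq2 1.42.0, R 4.3.3), Gapdh and 83 ribosomal protein genes, and the GC trend was a lowess curve with a span of 0.3. The estimates were tested on simulated data with exponential decay, counting error and known library sizes. That simulation did not test the choice of scale or the GC trend. Scripts ran in Python 3.11.15 with scipy 1.17.1, statsmodels 0.14.6, pandas 2.3.3, numpy 2.4.6, intervaltree 3.1.0 and matplotlib 3.10.9.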

Additional observations from a re-analysis of the deposited data

Results flagged for a closer look

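For 4 cyclins the comparison of the lines gave opposite directions at different times or in the 2 lines, and in none of them was the difference tested, since each value rests on 1 library. Ccnd2 stood at 97.5% of its 0 h level at 8 h in WT and at 105% in R255K, and the counting interval of each held 100%. The log2 ratio of FPKM + 1, R255K over WT, of Ccne2 was −0.41 at 0 h, 0.42 at 4 h and 0.98 at 8 h. For Ccnb1 it was −0.32 at 0 h, −0.019 at 4 h and 0.0017 at 8 h. For Ccnf it was −0.17 at 0 h, −0.046 at 4 h and 0.72 at 8 h. The median of all genes moved over the same times from 0.05 to 0.18 and 0.33.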

How the results depend on the processing

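No paired analysis was possible because the peak lists hold no value per library and the actinomycin D series has 1 library per line and time. For the levels at 0 h, 1.5-fold lower cyclins numbered 2 with DESeq2 size factors and 2 with ribosomal protein genes, against 1. Over all tested genes 2163 and 2483 were lower on these 2 scales, against 1867. With Gapdh as the scale 8 cyclins were higher and 0 lower, beside 10003 higher and 143 lower over all tested genes. The log2 ratios of Ccnd3 (0.30), Cdkn1c (0.37), Cul3 (0.43), E2f2 (0.32), Lin54 (0.47) and Rbl1 (0.49) turned positive with Gapdh. That scale moved the median of all genes by 1.28 and the ribosomal protein genes by −0.13. The alternatives with 4 h or 8 h libraries in place of 0 h were chosen after seeing the data. At 4 h Lin54 had 0.65, and at 8 h 5 cyclins were higher, with Cul3 at 0.68, Lin54 at 0.71 and Rbl1 at 0.0092.

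The half-life ratios depended most on the scale. The main counts were 4 cyclins above 1.5, 1 under 1/1.5 and 2 with the interval above 1.5. They became 1, 0 and 0 with TMM factors and 0, 0 and 0 with DESeq2 size factors, where only 4 and 3 cyclins had a ratio. With ribosomal protein genes they were 8, 0 and 7, and Ccnd1 (2.37), Ccnk (1.11) and Nfyc (1.34) turned above 1. With Gapdh they were 0, 3 and 0, and Ccne2 (0.673), Ccnb1 (0.015), Ccnf (0.115), Cdkn1b (0.599), Cul3 (0.476), E2f1 (0.327) and Rbl1 (0.121) went from above 1.5 to below 1, while Ccna2 (0.051), Cdkn1a (0.828) and Ccno (0.513), above 1 but not above 1.5 before, also fell below 1. From the 4 h library alone they were 2, 1 and 1, and from the 8 h library alone 4, 0 and 3, with Ccnd1 at 2.98. From 4 to 8 h they were 2, 0 and 2. With a mean of at least 5 FPKM 2 were above 1.5, since fewer genes were left. With the GC trend removed they were 4, 0 and 1, but the 4 above 1.5 were not the same genes. They were then Ccnd1 (1.73), Ccnd2 (5.67), Ccne1 (1.68) and Ccnf (2.23), while Ccne2 fell to 1.43 and Ccnb1 to 0.709. Of all genes with a ratio, 68.8% were above 1.5 on the main scale, 60.0% with TMM factors and 61.1% with DESeq2 size factors. This share was 81.4% with ribosomal protein genes and 2.29% with Gapdh. It was 62.1% from 4 h alone, 75.5% from 8 h alone and 72.7% from 4 to 8 h. With a mean of at least 5 FPKM it was 67.7%, and with the GC trend removed 67.8%. Apart from the alternatives' own construction, the causes were not tested.

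Fewer than 50% left at 8 h in WT was found for 4 cyclins, for 1 with DESeq2 size factors, 9 with Gapdh and 1 at 4 h. In R255K it was 1, 9 with Gapdh and 0 at 4 h. Of all tested genes, 28.3% in WT and 13.5% in R255K had fewer than 50% left at 4 h. For the other scales the share of all genes was not counted. At 4-fold enrichment or more, exonic peaks numbered 2 in WT and 0 in R255K, against 4 and 2, and among these 2 WT peaks 1 had no R255K overlap, against 3. The remaining alternatives kept these counts within 1.5 times. Ccnd2 in WT and Ccne2 rest on few counts, down to 24, which limits their ratios.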
